A study of Rattus norvegicus with 12 samples.

Results

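The genes described here encode the integrins, laminins and plectin with which basal keratinocytes hold on to the basement membrane. Of 9 genes listed, Itga2, Itga3, Itga6, Itgb1, Itgb4, Lama5 and Plec were found by name in the deposited array table (Plec under its older name Plec1), 7 in all. The table has no row under the names Lama3 or Lamb3, and these 2 genes were reached through the gene ID of rows with placeholder names. Each gene had 1 probe among the 22523 probes of the table, 8 of the 9 were detected and tested, and 10937 genes were tested in all. Keratinocytes of the rat line REK, with no feeder layer, formed organotypic cultures, in which the cells stratify into an epidermis-like layer, and RNA of the epidermal layer was measured on an Illumina RatRef-12 BeadChip. There were 4 groups of 3 cultures, named A, B and C: betaine + UVB (10 mM betaine for 11 days and 30 mJ/cm2 UVB given 24 h before collection), UVB (the same irradiation without betaine), betaine (10 mM for 11 days, no UVB) and control (no betaine, mock irradiation). Betaine is an organic osmolyte, a small solute that cells accumulate under hypertonic stress, and UVB is the short-wave part of sunlight absorbed in the epidermis. All groups shared the cell line and the age of 2 weeks, and no record states that the replicate cultures were separate experiments; p-values therefore reflect the spread between these cultures, which may be technical.

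In the epidermis, integrins pair an alpha with a beta chain. The alpha6 beta4 integrin sits in hemidesmosomes, where plectin ties it to the keratin filaments inside the cell and the main laminin of skin, which holds the alpha3 and beta3 chains, anchors it outside. The alpha3 beta1 integrin also binds that laminin and laminins with the alpha5 chain, while alpha2 beta1 is a receptor for collagen. In normal epidermis these integrins are concentrated on the basal layer, and keratinocytes lose them from the surface as they move up and differentiate.

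The RefSeq promoter table (GRCr8) held 6 of the 9 genes: Itga2, Itga3, Itgb1, Lama3, Lama5 and Lamb3. The 250 bases upstream of the annotated start are shown for the 3 of these genes whose level changed in at least 1 comparison, read 5′ to 3′ on the gene's strand, with the SP letters (GGGCGG on either strand) in capitals.
Itga2, chr2:48354510-48354759, minus strand: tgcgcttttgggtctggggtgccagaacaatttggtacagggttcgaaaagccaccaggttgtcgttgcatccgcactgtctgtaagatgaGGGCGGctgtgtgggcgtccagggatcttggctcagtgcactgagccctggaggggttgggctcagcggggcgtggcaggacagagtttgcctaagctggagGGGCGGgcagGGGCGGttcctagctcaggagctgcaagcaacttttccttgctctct
Itga3, chr10:80518902-80519151, minus strand: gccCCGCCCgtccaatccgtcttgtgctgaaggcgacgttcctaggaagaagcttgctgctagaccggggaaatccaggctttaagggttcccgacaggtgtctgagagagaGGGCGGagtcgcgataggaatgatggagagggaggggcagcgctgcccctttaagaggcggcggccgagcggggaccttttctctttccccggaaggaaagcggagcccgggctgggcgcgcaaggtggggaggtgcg
Lama5, chr3:187695975-187696224, minus strand: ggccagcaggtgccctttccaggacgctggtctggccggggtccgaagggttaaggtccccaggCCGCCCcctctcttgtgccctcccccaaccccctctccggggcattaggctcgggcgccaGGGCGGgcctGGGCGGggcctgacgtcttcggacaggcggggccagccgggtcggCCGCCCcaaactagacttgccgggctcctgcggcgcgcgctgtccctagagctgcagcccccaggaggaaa
The SP letters occurred 3 times before Itga2, 2 times before Itga3 and 4 times before Lama5, and also 4 times before Itgb1. They were found in neither the Lama3 nor the Lamb3 window. Of all 33469 promoters of the table, 30.5 percent held these letters in the same 250 bases. The AP-1 letters (TGANTCA on either strand, with N any base) occurred in the Lama3 window alone among the 6, 3 times, against 6.34 percent of all promoters, and they do not overlap the SP letters. A link between these letters and the changes was not tested. A match describes the sequence only.

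The labelled cell type was checked first. Of 6 basal keratinocyte markers 5 had a probe and all 5 were detected, Krt14 and Tp63 among them, and 8 of 9 suprabasal markers with a probe passed the detection filter, Krt1 and Krt10 among them; loricrin was on no array. Of fibroblast markers with a probe, 6 of 7 were detected on no array, and the same held for 3 of 5 melanocyte, 4 of 6 immune and 3 of 4 endothelial markers. The remaining ones were detected. Mlana, Cd3e, Cd68 and a probe each of Pmel and Tie1 were on every array, and the fibroblast marker Col3a1 was on part of them. Per array, 10369 to 10768 probes were detected. Betaine culture C stood apart most from its own group, with a root mean square difference of 0.343 log2 from the other 2 betaine cultures, against 0.179 to 0.284 for the other 11 arrays, so results that rest on it are given with and without it.

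Levels below are background-corrected, quantile-normalized log2 intensities, comparable between arrays for 1 probe but not between probes, and a change is a difference of group means on that scale, given ± its standard error from limma with n = 3 cultures per group. A gene is called changed at a Benjamini-Hochberg adjusted p under 0.05 over all 10937 genes.

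**Figure D1:**
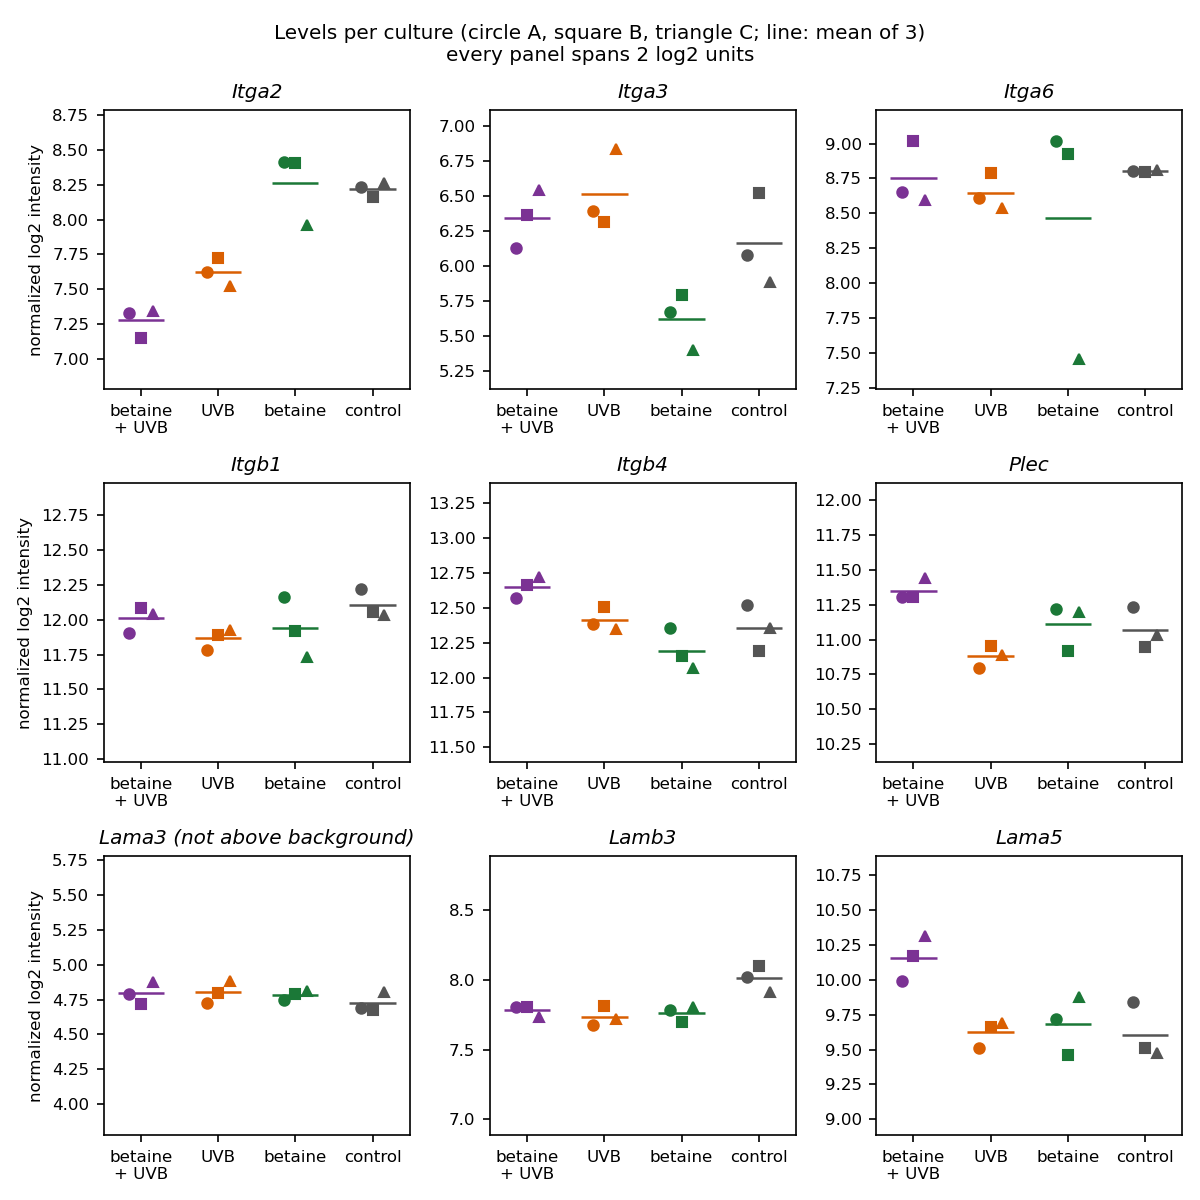
Normalized log2 intensity (vertical axis, 2 log2 units in every panel) of the 9 genes in the betaine + UVB, UVB, betaine and control groups. Each point is 1 culture (circle A, square B, triangle C) and each line the mean of 3. Itga2 lay lower in all 6 irradiated cultures than in all 6 others, Lama5 was highest in the 3 betaine + UVB cultures, and betaine C was far below its group for Itga6.

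Itga2, the alpha chain of the collagen receptor, fell after UVB in cultures grown with and without betaine. Its levels were 7.33, 7.15 and 7.35 in the betaine + UVB cultures A, B and C, 7.63, 7.72 and 7.52 in the UVB cultures, 8.41, 8.40 and 7.96 in the betaine cultures and 8.23, 8.17 and 8.26 in the control cultures. The irradiated and unirradiated cultures did not overlap, and all 3 betaine + UVB cultures lay below all 3 UVB cultures. UVB vs control gave a change of -0.60 ± 0.12, 1.51-fold lower with UVB (limma adjusted p = 0.0137). In betaine-grown cultures the change with UVB was -0.98 ± 0.12, 1.98-fold lower (limma adjusted p = 3.33e-04). These comparisons share no arrays.

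The decrease with both treatments against control was -0.94 ± 0.12 (limma adjusted p = 8.06e-04), and the UVB effect averaged over both betaine states was -0.79 ± 0.085 (limma adjusted p = 6.27e-05). Betaine vs control for Itga2 was 0.04 ± 0.12 (95% interval -0.22 to 0.30), with betaine A and B above all control cultures and betaine C below them, and 0.19 without betaine C, neither called. In irradiated cultures betaine gave -0.35 ± 0.12, which did not pass (limma adjusted p = 0.195), and the difference between the UVB effects with and without betaine was -0.39 ± 0.17 (limma adjusted p = 0.605). The call in UVB vs control was lost without UVB culture C (-0.55, limma adjusted p = 0.0624). The calls in betaine + UVB vs betaine, in betaine + UVB vs control and in the averaged UVB effect held in each of the 12 fits that left out 1 array. With the authors' processed values the changes were smaller, at -0.30 in UVB vs control and -0.46 in betaine + UVB vs betaine, and both were called. RNA came from whole epidermal layers, so fewer cells of a type and less RNA per cell cannot be told apart.

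Itga3, the alpha chain that pairs with beta1 to bind laminin, rose with UVB in betaine-grown cultures, on a probe close to background. The levels of Itga3 were 6.13, 6.36 and 6.55 in the betaine + UVB cultures, 6.40, 6.32 and 6.84 in the UVB cultures, 5.67, 5.79 and 5.40 in the betaine cultures and 6.08, 6.52 and 5.89 in the control cultures. The 3 betaine cultures were the lowest of the 12, and on betaine C alone the probe was not above background, at a scanner detection level of 0.0946. Betaine + UVB vs betaine gave 0.73 ± 0.19, 1.65-fold higher (limma adjusted p = 0.0401), and the averaged UVB effect was 0.54 ± 0.13 (limma adjusted p = 0.0196). UVB vs control was 0.35 ± 0.19 (limma adjusted p = 0.363), and the groups overlapped.

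Betaine vs control for Itga3 was -0.54 ± 0.19, with no overlap between the groups but no call (limma adjusted p = 0.270). The call in betaine + UVB vs betaine was kept in 5 of 12 fits without 1 array. It was lost without betaine A, B or C, without UVB A and without betaine + UVB A, B or C, where the adjusted p reached 0.162, and with the authors' processed values the change was 0.15. The averaged UVB effect lost its call without control C (0.47, limma adjusted p = 0.0508), without betaine + UVB C (0.49, limma adjusted p = 0.0531) and with the authors' values, where it was 0.12.

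Itgb1, the common partner of both of these alpha chains, passed in no comparison. Its levels were 11.90, 12.08 and 12.04 with betaine + UVB, 11.78, 11.89 and 11.92 with UVB, 12.16, 11.92 and 11.73 with betaine and 12.22, 12.05 and 12.03 in control cultures. All 3 UVB cultures lay below all 3 control cultures, while every other pair of groups overlapped. UVB vs control was -0.24 ± 0.11 (95% interval -0.48 to 0.005, limma adjusted p = 0.295), and betaine + UVB vs UVB was 0.14 ± 0.11 (95% interval -0.099 to 0.385).

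Of the hemidesmosomal integrin chains, Itgb4 rose with UVB in betaine-grown cultures and Itga6 passed in no comparison. Itgb4 had 12.57, 12.67 and 12.72 in the betaine + UVB cultures, 12.39, 12.51 and 12.35 in the UVB cultures, 12.35, 12.16 and 12.06 in the betaine cultures and 12.52, 12.19 and 12.35 in the control cultures. The 3 betaine + UVB cultures were the highest of the 12. Betaine + UVB vs betaine gave 0.46 ± 0.11, 1.38-fold higher (limma adjusted p = 0.0226), and the averaged UVB effect was 0.26 ± 0.075 (limma adjusted p = 0.0444).

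UVB vs control for Itgb4 was 0.06 ± 0.11 (95% interval -0.17 to 0.29), and betaine + UVB vs control was 0.30 ± 0.11 (limma adjusted p = 0.140). The call in betaine + UVB vs betaine was lost without betaine B, betaine C, betaine + UVB B or betaine + UVB C (0.40 to 0.45, adjusted p up to 0.0979) and under median scaling (0.43, limma adjusted p = 0.0591). The averaged call held in only 2 of the 12 fits without 1 array, those without control A and without betaine A.

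Itga6, the alpha chain of the hemidesmosomal integrin, was set by a single array in the comparisons with the betaine group. Its levels were 8.65, 9.02 and 8.59 with betaine + UVB, 8.61, 8.79 and 8.54 with UVB, 9.02, 8.92 and 7.46 with betaine and 8.80, 8.80 and 8.81 in control cultures. Betaine C lay 1 log2 unit or more below the other 11 cultures, with a raw intensity of 228 against 393 to 680 elsewhere. With it, betaine vs control was -0.34 ± 0.31 and betaine + UVB vs betaine was 0.29 ± 0.31. Without it these became 0.17 ± 0.13 and -0.22 ± 0.13, and Itga6 passed in no comparison with or without it. All 3 UVB cultures lay below all 3 control cultures. UVB vs control was -0.154 ± 0.314 with betaine C and -0.155 ± 0.113 without it.

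Plec, the plakin that links the beta4 chain to keratin filaments, was highest with both treatments. The Plec levels were 11.30, 11.31 and 11.44 with betaine + UVB, 10.80, 10.96 and 10.89 with UVB, 11.22, 10.92 and 11.20 with betaine and 11.23, 10.94 and 11.03 in control cultures. The 3 betaine + UVB cultures lay above the other 9. Betaine + UVB vs UVB was 0.47 ± 0.11 (95% interval 0.24 to 0.70) and did not pass (limma adjusted p = 0.0680). It passed with no background correction (0.46, limma adjusted p = 0.0366), with the authors' processed values (0.46, limma adjusted p = 0.0365), with these 2 groups fitted alone (0.47, limma adjusted p = 0.0347) and without control A, betaine B or betaine C. UVB vs control was -0.19 ± 0.11 and betaine vs control 0.04 ± 0.11, neither called.

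Among the laminin chains, Lama5 rose with both treatments. Lama5, which encodes the laminin alpha5 chain, had 9.99, 10.17 and 10.31 in the betaine + UVB cultures, 9.51, 9.67 and 9.69 in the UVB cultures, 9.72, 9.46 and 9.88 in the betaine cultures and 9.84, 9.51 and 9.47 in the control cultures. The betaine + UVB cultures did not overlap any other group, and the other 3 groups overlapped each other. Betaine + UVB vs control gave 0.55 ± 0.13, 1.47-fold higher (limma adjusted p = 0.0344).

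Against UVB alone Lama5 differed by 0.53 ± 0.13 (limma adjusted p = 0.0916) and against betaine alone by 0.47 ± 0.13 (limma adjusted p = 0.0599), neither called. UVB vs control was 0.02 ± 0.13 (95% interval -0.28 to 0.31) and betaine vs control 0.08 ± 0.13 (95% interval -0.21 to 0.37). The call against control was kept in 6 of 12 fits without 1 array. It was lost without control B or C, betaine A, UVB B, or betaine + UVB B or C (adjusted p up to 0.148), and also under median scaling (0.46, limma adjusted p = 0.0679).

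Lamb3, the beta chain of the hemidesmosomal laminin, was highest in control cultures. The Lamb3 levels were 7.81, 7.81 and 7.74 with betaine + UVB, 7.68, 7.81 and 7.72 with UVB, 7.78, 7.70 and 7.80 with betaine and 8.02, 8.10 and 7.92 in control cultures. All 9 treated cultures lay below the 3 controls, and the treated groups overlapped each other. The changes against control were -0.23 ± 0.079 for betaine + UVB (limma adjusted p = 0.129), -0.27 ± 0.079 for UVB (limma adjusted p = 0.0749) and -0.25 ± 0.079 for betaine (limma adjusted p = 0.230). These comparisons share the control arrays, and none was called. Under median scaling UVB vs control passed for Lamb3 (-0.39, limma adjusted p = 0.0277).

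Lama3, the alpha chain of the same laminin, was detected on 0 of 12 arrays, with detection p-values from 0.510 to 0.950. Its probe read 4.80 ± 0.080 with betaine + UVB, 4.80 ± 0.079 with UVB, 4.78 ± 0.031 with betaine and 4.72 ± 0.071 in control cultures (SD, n = 3 each). These readings are not above background, and Lama3 was not tested. An absent transcript and a probe that does not read it cannot be told apart here.

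By count, 1 of the 8 tested genes was called in UVB vs control, where 4.96 percent of all genes were. In betaine + UVB vs betaine 3 of 8 were called, against 6.14 percent of all genes. With both treatments against control 2 of 8 were called, against 5.17 percent, and for the averaged UVB effect 3 of 8, against 11.2 percent. These comparisons share arrays with one another, apart from the first pair. The genes were chosen with earlier results of these data known, so these counts are a description only.

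Betaine alone gave no call among the 8 genes, against 0.896 percent of all genes, and 2 had an unadjusted p under 0.05 in limma (Itga3 and Lamb3), against 11.4 percent of all genes. Betaine in irradiated cultures likewise gave 0 of 8, against 0.887 percent, with 4 at an unadjusted p under 0.05 in limma (Itga2, Itgb4, Lama5 and Plec), against 17.0 percent. The averaged betaine effect gave 0 of 8, against 3.25 percent, with 3 at an unadjusted p under 0.05 in limma (Itga3, Lama5 and Plec), against 19.0 percent.

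The median change of the 8 genes was -0.17 in UVB vs control, with all genes at -0.017, and -0.16 in betaine vs control, with all genes at 0.002. It was 0.12 in betaine + UVB vs UVB, with all genes at 0.005, and 0.26 in betaine + UVB vs betaine, with all genes at -0.009. Single arrays moved these medians: betaine vs control was -0.04 without betaine C, -0.09 without control A and -0.25 without betaine A, betaine + UVB vs UVB was 0.07 without betaine + UVB B, and betaine + UVB vs betaine was 0.16 without betaine C. Under median scaling UVB vs control was -0.30. The authors' processed values gave -0.11 in UVB vs control and 0.15 in betaine + UVB vs betaine.

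**Figure D2:**
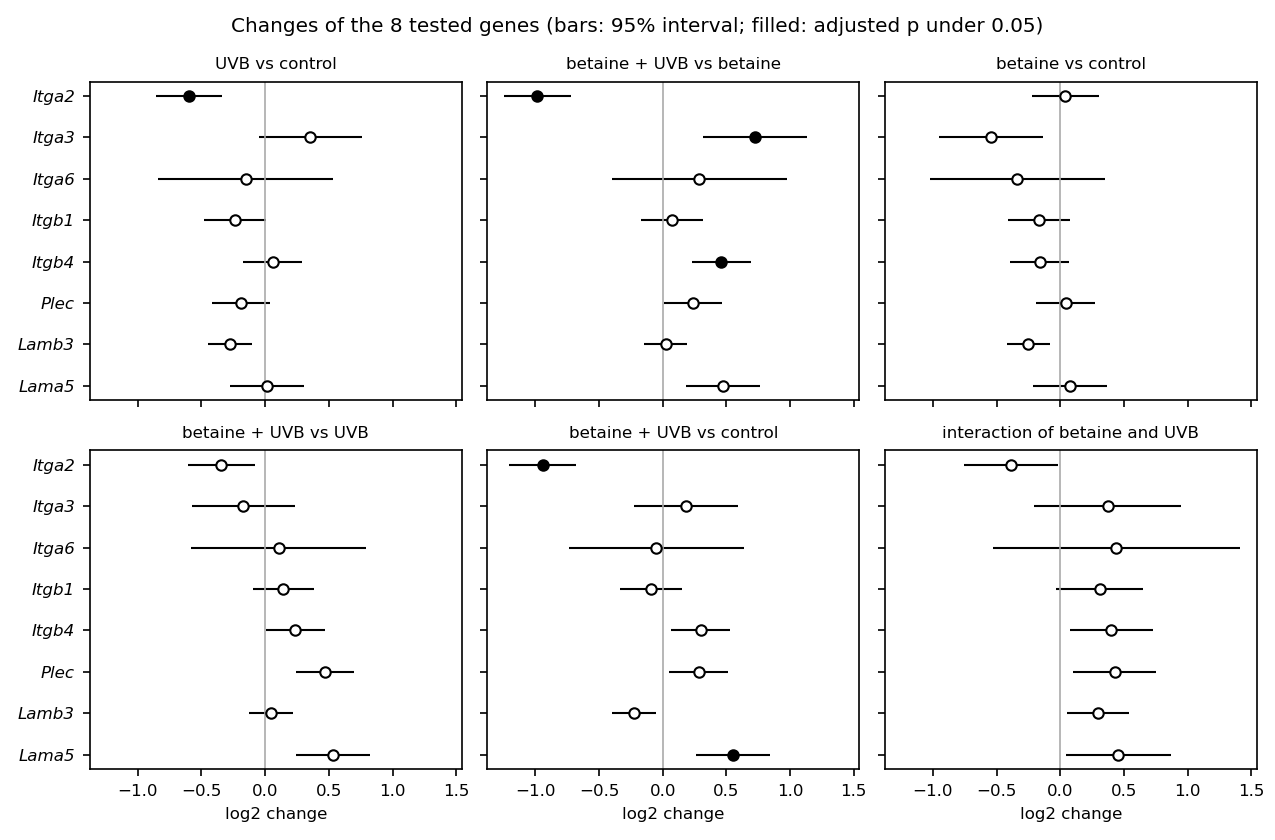
Log2 change (horizontal axis) of the 8 tested genes in 5 comparisons and in the interaction, with 95% intervals from limma. Filled points have an adjusted p under 0.05. Itga2 is filled and left of 0 in the 3 comparisons of irradiated with unirradiated cultures, and 7 of 8 interaction estimates lie above 0, none of them called.

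The interaction asks whether the UVB effect differed between betaine-grown and other cultures. None of the 8 genes was called in limma, and 0.0 percent of all genes were. An unadjusted p under 0.05 was found for 5 of the 8 (Itga2, Itgb4, Lama5, Lamb3 and Plec), against 8.05 percent of all genes. Of the 8 estimates 7 lay above 0, with a median of 0.39 against 0.016 over all genes, and 0.26 with the authors' processed values. Plec had 0.43 ± 0.15 (limma adjusted p = 0.574) and Lama5 0.46 ± 0.19 (limma adjusted p = 0.601). Itgb4 had 0.40 ± 0.15 and Lamb3 0.30 ± 0.11 (limma adjusted p = 0.587 for each). Itga2 alone lay below 0. Under median scaling, and with the authors' processed values, 7 of 8 were again above 0. Without betaine C 6 of 8 were, because Itga6 went to -0.06, and the median was 0.29. The lists described below had 5 to 20 tested genes each, none of them called in the interaction. Some also had interaction medians above that of all genes. These were 0.26 for basal markers, 0.23 for other basement membrane components and 0.21 for hemidesmosome partners. Matrix turnover had 0.16, other laminin chains 0.15 and focal adhesion 0.06. Other integrin subunits (-0.07) and suprabasal markers (-0.30) lay below. Marker lists of other cell types, with 1 or 2 tested genes each, also lay on both sides. These were fibroblast (0.27), endothelial (0.18) and melanocyte (0.10) above, and immune (-0.16) below. The basal list includes Krt14, and the suprabasal list Krt1, Krt10 and Sbsn, all near the top of the scale.

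**Figure D3:**
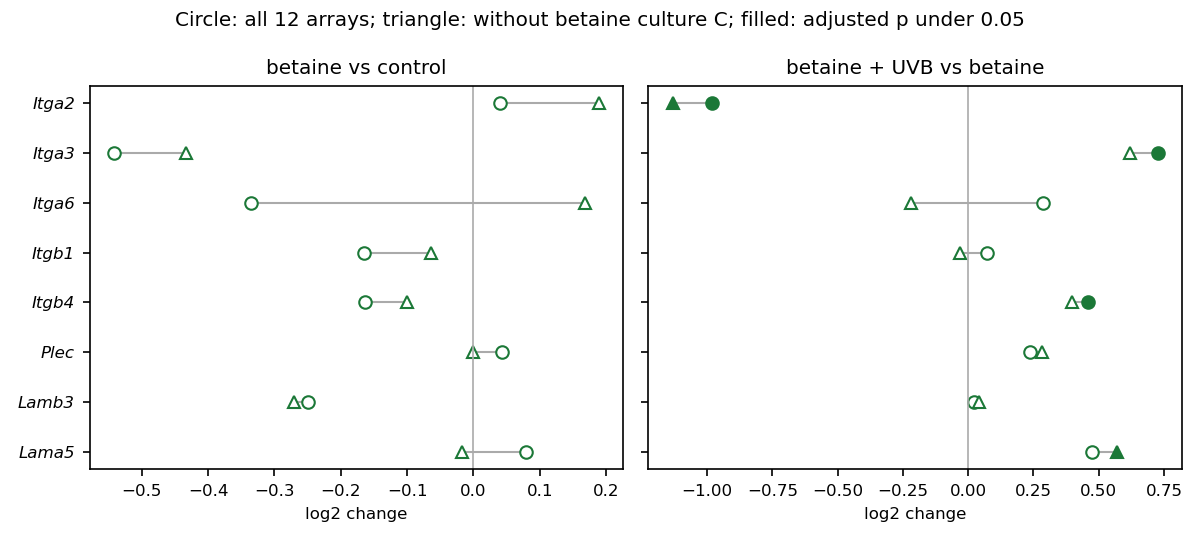
Log2 change (horizontal axis) of the 8 tested genes with all 12 arrays (circles) and without betaine culture C (triangles), for betaine vs control and betaine + UVB vs betaine. Filled symbols have an adjusted p under 0.05. Itga6 crosses 0 in both panels, Itga2 stays at the far left in the second, and Itga3 and Itgb4 lose their calls there while Lama5 gains one.

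Leaving out betaine C, the array that stood apart, touched several of these values. In betaine + UVB vs betaine, Itga2 was -1.13 (limma adjusted p = 3.89e-05), Itga3 was 0.62 (limma adjusted p = 0.0866) and Itgb4 was 0.40 (limma adjusted p = 0.0536). Lama5 was 0.57 and passed (limma adjusted p = 0.0301). In betaine vs control none of the 8 was called either way.

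Partner genes of the same structures were described from lists chosen with earlier results of these data known. Of 7 tested hemidesmosome and anchoring partners none was called in any comparison. Over all genes the share called ran from 0.0 percent in the interaction to 11.2 percent in the averaged UVB effect. A count of 0 in 7 genes lies near such shares and is not read as stability. Col17a1, the transmembrane collagen XVII of the hemidesmosome, gave -0.22 ± 0.093 in UVB vs control (limma adjusted p = 0.233) and 0.25 ± 0.093 in betaine + UVB vs UVB (limma adjusted p = 0.214). Dst, whose epithelial product BP230 is the other hemidesmosomal plakin, gave 0.36 ± 0.15 in betaine + UVB vs UVB (limma adjusted p = 0.251) and -0.06 ± 0.15 in UVB vs control. The tetraspanin Cd151, which binds laminin-binding integrins, stayed between -0.115 and 0.036 in the 5 comparisons of groups. The list's median was 0.25 in betaine + UVB vs UVB, with all genes at 0.005.

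None of 5 tested other laminin chains was called in any comparison. None of 8 tested other basement membrane components was called, and a further 8 with a probe were on no array. With 0.0 to 11.2 percent of all genes called, depending on the comparison, counts of 0 in lists this small are not read as stability either.

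Of 9 tested other integrin subunits, Itgb7, a beta chain best known from lymphocytes, was the only one called. Itgb7 rose by 0.67 ± 0.18 in UVB vs control (limma adjusted p = 0.0496) and by 0.52 as the averaged effect (limma adjusted p = 0.0169). The call in UVB vs control was kept in 3 of 12 fits without 1 array (betaine C, betaine + UVB B or betaine + UVB C), and the averaged call in 12 of 12. The call in UVB vs control, where 4.96 percent of all genes were called, was also lost with no detection filter, under median scaling, with all probes as features and under a replicate block (adjusted p 0.0506 to 0.0799), and the authors' processed values gave 0.26, which was called. Among immune markers with a probe, 4 of 6 were on no array, and neither of the 2 tested ones was called.

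**Figure D4:**
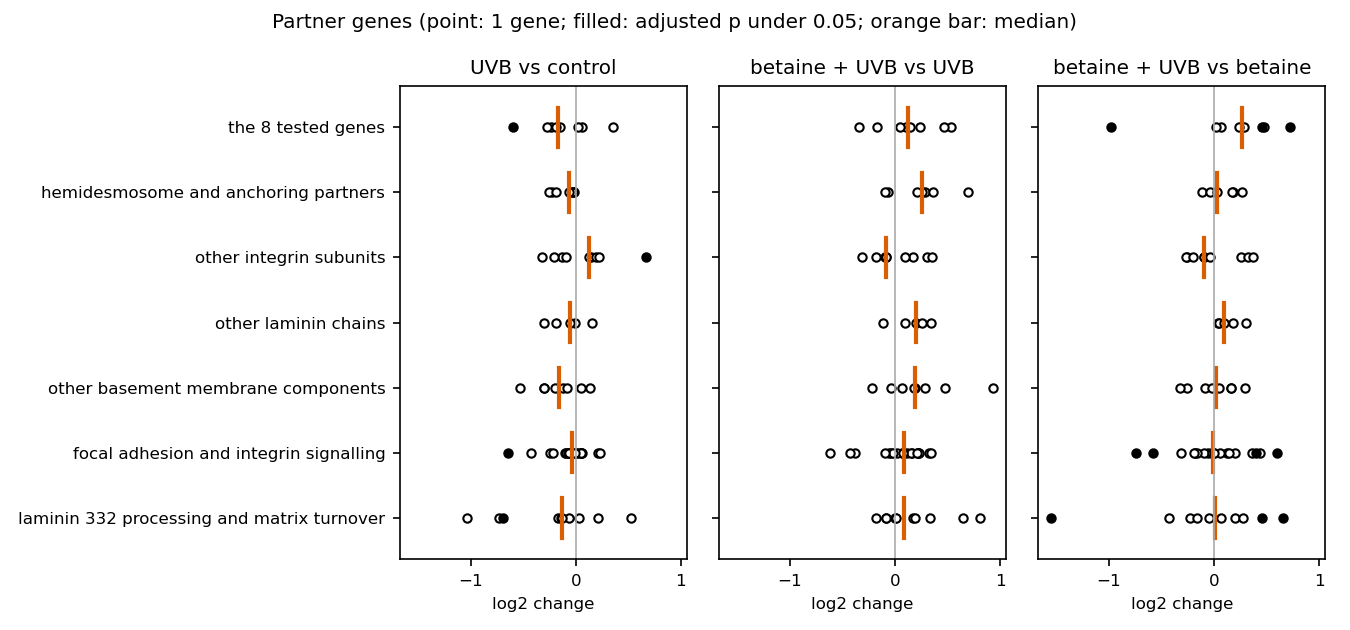
Log2 change (horizontal axis) of single genes in the 8 tested genes and in 6 lists of partner genes, for UVB vs control, betaine + UVB vs UVB and betaine + UVB vs betaine. Filled points have an adjusted p under 0.05 and orange bars are medians. Called partner genes lie among the focal adhesion, matrix turnover and other integrin lists, and none among the hemidesmosome, laminin and basement membrane lists. Of all genes 4.96, 0.887 and 6.14 percent were called in these comparisons, so no call in a small list is not read as stability.

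Inside the cell, integrins are linked to actin at focal adhesions, and 20 genes of that list were tested. In UVB vs control 1 of 20 was called, where 4.96 percent of all genes were, in betaine + UVB vs betaine 4 of 20, against 6.14 percent, and in betaine + UVB vs control 3 of 20, against 5.17 percent. Tln2, a talin that connects integrin tails to actin, fell with UVB by 0.64 ± 0.10 in cultures without betaine (limma adjusted p = 0.00308) and by 0.58 ± 0.10 in betaine-grown ones (limma adjusted p = 0.00445), and both calls held in 12 of 12 fits without 1 array. The authors' processed values gave -0.23 and -0.22, both called. Lims1, an adaptor of integrin-linked kinase, fell by 1.04 ± 0.15 in betaine + UVB vs control (limma adjusted p = 0.00144). In betaine + UVB vs betaine Lims1 fell by 0.74 ± 0.15 (limma adjusted p = 0.00987). A dimmer probe of Lims1 showed neither, with 0.06 ± 0.19 and 0.005 ± 0.19. With the authors' values the changes of Lims1 were -0.57 and -0.40, both called, and the second was lost with 2 groups alone (limma adjusted p = 0.062). Flna, the actin crosslinker filamin A, rose by 0.60 ± 0.12 in betaine + UVB vs betaine (limma adjusted p = 0.0111, lost without betaine B or betaine + UVB C). The docking protein gene Bcar1 rose by 0.40 ± 0.11 there (limma adjusted p = 0.0458), a call kept in 3 of 12 fits without 1 array (control A, control C or UVB C) and lost with no detection filter, under median scaling and under a replicate block (adjusted p 0.0561 to 0.0664).

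Among 10 tested genes of laminin processing and matrix turnover, metalloproteases moved in both directions. The gelatinase gene Mmp9 fell by 0.69 ± 0.17 in UVB vs control (limma adjusted p = 0.0421), kept without control C, betaine B or betaine C and lost without any other array. It was the only call of 10 there, where 4.96 percent of all genes were called. With no detection filter, the authors' processed values (-0.30) or 2 groups alone Mmp9 was not called (adjusted p up to 0.0875). With UVB in betaine-grown cultures 3 of 10 were called, against 6.14 percent of all genes. Mmp10 (stromelysin 2) fell by 1.55 ± 0.30 (limma adjusted p = 0.0084), and the authors' values gave -0.68, also called. Mmp2, the other gelatinase gene, rose by 0.46 ± 0.10 (limma adjusted p = 0.0219, lost without betaine A or B or betaine + UVB A or B). Mmp2 was not called with no background correction (0.24, limma adjusted p = 0.0626) or with the authors' values (0.091, limma adjusted p = 0.131). Mmp3 (stromelysin 1) rose by 0.66 ± 0.18 (limma adjusted p = 0.0485, kept only without control B, betaine B or betaine + UVB A, and lost with no detection filter, under median scaling and with 2 groups alone). Mmp3 in betaine + UVB vs control rose by 1.33 ± 0.18 (limma adjusted p = 0.00102), the only call of 10, against 5.17 percent of all genes. In the averaged betaine effect 2 of 10 were called, both higher (Mmp3 and Mmp9), against 3.25 percent. That Mmp3 call held in 12 of 12 fits without 1 array (0.645 to 0.816), the Mmp9 call in 2 of 12. For the averaged UVB effect 1 of 10 was called higher (Mmp3) and 2 lower (Mmp9 and Mmp10), against 11.2 percent, each held in 12 of 12.

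Markers of the layers were set beside the members. Of 5 basal markers Krt15, a basal keratin, fell by 0.74 ± 0.14 in UVB vs control (limma adjusted p = 0.00926) and by 0.54 ± 0.14 in betaine + UVB vs control (limma adjusted p = 0.0434), and the other 4 were not called in either. Of all genes 4.96 and 5.17 percent were called there. The second Krt15 call was kept in 3 of 12 fits without 1 array (control C, betaine C or UVB C) and lost with no detection filter (limma adjusted p = 0.0656). Krt14, the main basal keratin, had raw intensities of 27720 to 32020, where the brightest probe of an array read 34140 to 40910. It lay near the top of the scale, so neither a change nor its absence is read from it. Of 8 suprabasal markers Krt2, a keratin of the upper layers, was the only one called in any comparison. In the comparisons that called Krt2, from 0.887 to 11.2 percent of all genes were called. The suprabasal markers Krt1, Krt10 and Sbsn had group means of 14.70 to 14.95, beside 14.84 to 14.92 for Krt14. An absence of change is therefore not read from them either. Krt2 averaged 8.20 ± 0.20 with betaine + UVB, 5.79 ± 0.51 with UVB, 9.35 ± 0.67 with betaine and 7.38 ± 0.36 in control cultures (SD, n = 3 each), and UVB C was not above background. It fell by 1.59 ± 0.32 in UVB vs control (limma adjusted p = 0.0142), a call lost without control B or UVB C and with the authors' processed values (-0.45, limma adjusted p = 0.221).

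With betaine Krt2 rose, by 1.98 ± 0.32 in betaine vs control (limma adjusted p = 0.0192) and by 2.42 ± 0.32 in betaine + UVB vs UVB (limma adjusted p = 0.006). The first of these calls was lost without control A or C, without betaine A or B and with 2 groups alone, and was 1.13 with the authors' values. The second was lost with the authors' values (0.82, limma adjusted p = 0.0662) and held in 12 of 12 fits without 1 array. The averaged betaine effect on Krt2 was 2.20 ± 0.23 (limma adjusted p = 3.18e-04). The part of layer composition in the Itga2 change was not tested.

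The genes whose pattern over the 12 arrays was most like that of a called member were picked by the smallest root mean square difference of log2 values, each gene centred on its own mean. For Itga2 these were Camkmt (0.130), Cpa6 (0.175) and Cyp1a1 (0.182), against a root mean square of 0.432 for Itga2 itself about its mean. For Lama5, itself at 0.268, they were Lrp1 (0.105), Scrib (0.105) and Sbno2 (0.116). For Itgb4, itself at 0.194, they were Large2 (0.073), Trpv4 (0.087) and Fv1 (0.090). For Itga3, itself at 0.398, they were RT1-N3 (0.193), Fam20c (0.194) and Ccne1 (0.196). Cyp1a1, a xenobiotic-metabolising cytochrome P450 gene, gave -0.70 in UVB vs control and -0.82 in betaine + UVB vs betaine, and Lrp1, an endocytic receptor gene, gave 0.43 in betaine + UVB vs UVB and 0.41 in betaine + UVB vs control. These genes were picked for likeness over the same 12 arrays, so their changes resemble those of the member by selection and are no separate result.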

How the data were processed

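RNA of 12 organotypic REK cultures was measured on Illumina RatRef-12 arrays. Per the file headers, the deposited table gives an average signal intensity and a detection p-value for each of 22523 probes; the software that exported it is not given in the sources used here. A second deposited table holds the authors' processed values, read as log2 from their range. The submitters' processing notes name R 2.11 and limma, without a role.

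The neqc function subtracted background and quantile-normalized the intensities, in limma 3.58.1 with R 4.3.3 (negative controls inferred from detection p-values, offset 16). Probes needed a detection p under 0.05 on at least 3 arrays, and the brightest probe stood for a gene. All 12 arrays entered 1 model with group means and empirical Bayes moderation, tested on simulated data. P-values were Benjamini-Hochberg adjusted over 10937 genes. The number of arrays limits the precision: the median standard error was 0.121 log2 between 2 groups.

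Genes were renamed with a GRCr8 gene table: 10291 probes matched by symbol, 1642 by gene ID and 4978 by synonym, which is less certain (Camkmt, Large2, Fv1, Fam20c, Scrib and Sbno2). The 9 genes, the partner and marker lists and the tests were chosen with earlier results of these data known. Beside the 9 genes, the text names Col17a1, Dst and Cd151, list genes that were called, and the 3 genes most alike to each called member; a further partner gene is not reported here. Further marker genes (Krt14, Krt1, Krt10, Tp63, loricrin) are named as defining markers, and Sbsn for its level near the top of the scale. Mlana, Pmel, Cd3e, Cd68, Tie1 and Col3a1 are named as the detected markers of other cell types. Alternatives were another or no filter, no background correction, median scaling, the authors' values, all probes, 2 groups alone, a replicate block and each array left out.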

Additional observations from a re-analysis of the deposited data

How the results depend on the processing

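The number of the 8 genes called depended on the setting in several comparisons. In UVB vs control it was 1 and ran from 0 to 1 without 1 array, with 2 under median scaling, where Lamb3 joined Itga2. In betaine + UVB vs UVB it was 0 and ran from 0 to 1 without 1 array. It was 1 there with no background correction, 1 with the authors' processed values and 2 with these 2 groups alone. For betaine + UVB vs betaine it was 3 and ran from 1 to 4. For betaine + UVB vs control it was 2 and ran from 1 to 2, with 1 each with no detection filter, under median scaling and with 2 groups alone, where Lama5 lost its call. The averaged UVB effect ran from 1 to 3, and the averaged betaine effect, with 0, ran from 0 to 1 and gave 1 with the authors' values. The cause was not tested. No called change turned its direction under any setting run.

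A replicate block on the culture letters gave 2 calls in betaine + UVB vs betaine (Itga3 at an adjusted p of 0.0551) and 2 in the averaged UVB effect (Itgb4 at 0.0675), against 3 each without it, and left the other counts as they were. Of the called partner and marker genes, the block ended the calls of Itgb7 in UVB vs control (0.063), Bcar1 in betaine + UVB vs betaine (0.0664) and Tln2 in betaine + UVB vs control (0.0669). The sample records do not say whether the letters pair cultures. Same-letter correlations ran from -0.384 to 0.339 over 18 pairs, 8 of them over 0.1. The A pairs ran from -0.332 to 0.006 and the C pairs from -0.384 to 0.339. Among B pairs, control with betaine + UVB gave -0.024 and the others 0.178 to 0.292. Pairs with different letters ran from -0.499 to 0.443.

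Median scaling moved the median of all genes to -0.113 in UVB vs control and to 0.106 in the interaction. With it, 32.1 percent of all calls in UVB vs control were upward, against 60.0 percent, 16.2 against 40.8 percent in betaine vs control, 39.4 against 57.9 percent in betaine + UVB vs control and 37.3 against 54.1 percent for the averaged UVB effect. Under it Lama5 in UVB vs control was -0.12 and Plec in the averaged UVB effect -0.06. Slides are not named in the files, so a slide block was not run.

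Over all genes, called genes ran from 316 to 716 over the settings in UVB vs control (542 as reported), from 7 (2 groups alone) to 130 in betaine vs control (98) and from 26 to 318 (2 groups alone) in betaine + UVB vs UVB (97). They ran from 369 to 924 in betaine + UVB vs betaine (672), from 319 to 902 in betaine + UVB vs control (565) and from 176 to 464 for the averaged betaine effect (355). The interaction had 0 under every setting in limma.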
